A study of Rattus norvegicus with 65 samples.

Results

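Rat mammary tumors that carried the most macrophage transcript were compared with those that carried the least. A macrophage score was computed for each tumor array as the mean log2 intensity of Lyz2, Cd68 and Csf1r. The 16 arrays with the highest score were called macrophage-rich and the 16 with the lowest macrophage-poor, out of 64 ranked arrays and 65 in all; the members were thus chosen by the measured level of these 3 genes. The tumors came from 11 transplant lines, named 10, 13, 17, 19, 25L, 25R, 32, 33, 34, 36 and 42. Each line began with a carcinogen-induced primary tumor that was passed serially through syngeneic rats, up to transplant 5 (transplant 4 in line 10, whose transplant 5 is not analysed here). Each tumor gave 1 array of RNA from frozen whole tissue. The labels name neither rat strain, carcinogen nor age, and they give no macrophage count or invasive grade for any tumor. Neither class carries a label of its own: both were cut from measured values, and both hold primary and transplanted tumors. Arrays of 1 line descend from 1 tumor and share a genome, so they are not independent samples of a class. The labels do not say whether lines 25L and 25R came from 1 animal, and they were treated as separate lines.

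Macrophages are phagocytes that arise from monocytes and from tissue-resident precursors. Csf1r, the receptor for colony stimulating factor 1, keeps them alive, Cd68 sits in their lysosomal membranes, and Lyz2 encodes the lysozyme they secrete. In mammary tissue they accompany ductal growth and remodelling, and in mammary tumors they are a common part of the stroma, where they clear debris, present antigen and exchange growth factors with fibroblasts and tumor cells.

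The score ran from 9.83 to 10.76 (median 10.11) in macrophage-rich tumors, against 7.81 to 8.87 (median 8.66) in macrophage-poor tumors. These values chose the classes and are given as a description, with no test. At the upper cut, transplant 5 of line 13 (9.83) was the last array inside and transplant 4 of line 17 (9.82) the first outside. At the lower cut, transplant 3 of line 10 (8.87) was the last inside and the primary tumor of line 32 (8.88) the first outside. Both cuts fell in a continuous run of values.

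Lyz2 read 11.41, 12.19 and 12.99 (lowest, median and highest array) in macrophage-rich tumors, against 9.0, 10.29 and 10.57 in macrophage-poor tumors. Cd68 read 8.69, 9.18 and 9.96 in macrophage-rich tumors, against 6.86, 7.78 and 8.21 in macrophage-poor tumors. Csf1r read 8.39, 9.22 and 9.77 in macrophage-rich tumors, against 7.22, 7.97 and 8.16 in macrophage-poor tumors. None of the 3 overlapped between the classes, which the ranking on their mean favours. Each was read from a single probe set. In whole-tumor RNA, fewer macrophages and less transcript per macrophage cannot be told apart.

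Macrophage-rich arrays came from 7 lines and macrophage-poor arrays from 8. Line 42 gave 6 of the 16 macrophage-rich arrays, its whole set, followed by 3 from line 36, 2 each from lines 17 and 32, and 1 each from lines 13, 25R and 34. Lines 10, 13 and 19 gave 3 macrophage-poor arrays each, lines 25R and 34 gave 2 each, and lines 17, 25L and 33 gave 1 each. Only lines 13, 17, 25R and 34 held both classes. In lines 13, 25R and 34 the macrophage-rich class is a single array, and in line 17 the macrophage-poor class is. Comparisons within lines rest on these single arrays. By generation, 1 primary tumor was macrophage-rich and 4 were macrophage-poor, whereas 4 transplant 5 tumors were macrophage-rich and 0 were macrophage-poor. The median transplant number was 3.5 in macrophage-rich and 2 in macrophage-poor tumors.

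**Figure D1:**
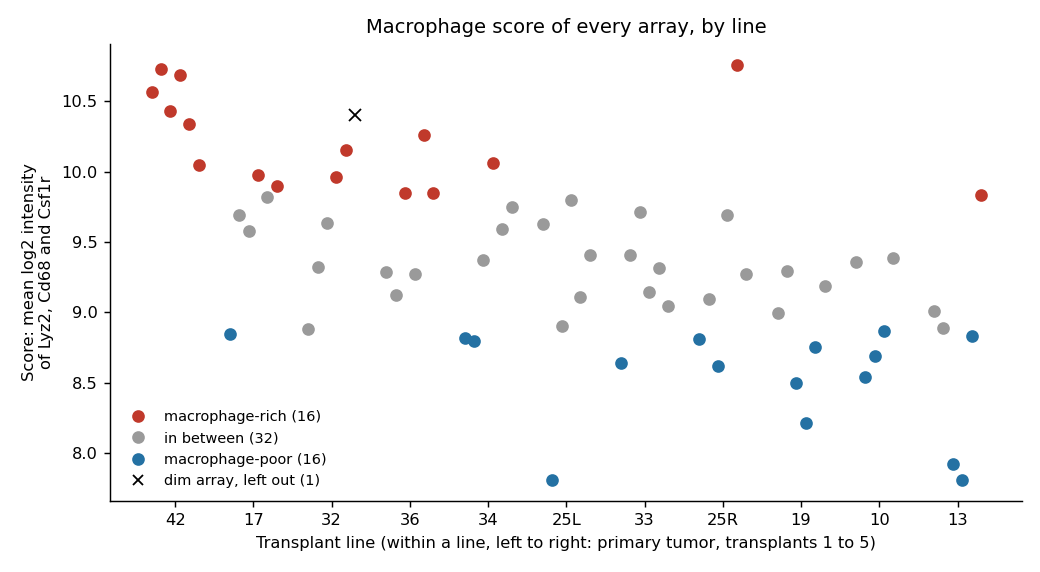
Macrophage score (vertical axis, mean log2 intensity of Lyz2, Cd68 and Csf1r) of all 65 arrays by transplant line, ordered within a line from primary tumor to transplant 5. Macrophage-rich arrays (9.83 to 10.76) include all 6 of line 42, macrophage-poor arrays (7.81 to 8.87) come from 8 lines, and the cross marks the dim array that was left out.

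Epcam, the adhesion molecule that defines epithelium, did not hold its level across the rich class. It read 5.31, 8.44 and 11.39 in macrophage-rich tumors, against 11.09, 11.53 and 12.01 in macrophage-poor tumors. Only 6 of 16 macrophage-rich arrays reached a log2 of 10, against 16 of 16 macrophage-poor arrays, and 0 of the 6 arrays of line 42 did so. The defining epithelial marker of the labelled tissue was at the floor of the measurement (5.31) on 4 macrophage-rich arrays. Counts for the main gene groups are also given without line 42 or for the 22 arrays with Epcam at 10 or above, a subset chosen after the data were seen. The Gapdh control probe sets gave a median 3′ to 5′ log2 signal ratio of 0.176 in macrophage-rich and 0.0919 in macrophage-poor tumors. Raw array medians averaged 156 and 164 in the same order. The 3′ to 5′ log2 ratio of beta-actin was lower in macrophage-rich tumors (median 0.246) than in macrophage-poor tumors (0.327). The part of RNA quality in the differences below was not tested beyond a fit with the Gapdh ratio as a covariate, which called 1576 genes.

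Beyond the 3 score genes, 8496 genes were tested with limma, with transplant line as a random block. At a Benjamini-Hochberg adjusted p below 0.05, 2232 genes (26.3%) differed, 1103 (13%) higher and 1129 (13.3%) lower in macrophage-rich tumors. Of these, 221 rose and 230 fell by at least 2-fold. The classes were ranked on genes of the same arrays, so any gene that follows macrophage content is favoured by the choice, and the p-values describe these arrays. Without line 42, 2009 genes (23.6%) were called, 999 (11.8%) higher and 1010 (11.9%) lower, and 1841 of the 2232 were shared. With line as a fixed block, which compares tumors within lines 13, 17, 25R and 34, 1379 (16.2%) were called, 605 (7.12%) higher and 774 (9.11%) lower. With generation as a covariate 1355 were called, and in the arrays with Epcam at 10 or above 996 (11.7%), 541 (6.37%) higher and 455 (5.36%) lower.

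Other genes of the macrophage lineage rose with the score genes. Of 30 tested genes of a macrophage and myeloid list, 23 were higher and 2 lower in macrophage-rich tumors, with a median difference of 0.87 on the log2 scale (0.00 over all 8496 genes). The count of 23 was the same without line 42 and in the arrays with Epcam at 10 or above, and 20 were called within lines. The mean over the list ran from 8.11 to 9.0 in macrophage-rich tumors, against 7.45 to 8.01 in macrophage-poor tumors, with no overlap.

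Tyrobp, the adaptor that passes signals from activating receptors on myeloid cells, read 9.57, 10.05 and 10.61 in macrophage-rich tumors, against 7.54, 8.69 and 9.16 in macrophage-poor tumors. The classes did not overlap, and the difference was 1.45 ± 0.15 (SE), 2.73-fold (limma adjusted p = 8.78e-09). Laptm5, a lysosomal membrane protein of blood cells, rose by 1.68 ± 0.17 (limma adjusted p = 1.31e-08). Cd53, a leukocyte tetraspanin, read 8.33, 8.73 and 10.02 in macrophage-rich tumors, against 6.47, 7.41 and 8.02 in macrophage-poor tumors, a rise of 1.77 ± 0.19. Fcer1g, the signalling chain shared by Fc receptors, rose by 1.36 ± 0.15. These 4 genes had the smallest p-values of the list, and in each the lowest macrophage-rich array stood above the highest macrophage-poor array. A choice by p-value favours such genes, and they were the only 4 of the 30 without overlap. Over all 8496 genes, 39 (0.459%) did not overlap in either direction.

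The rise reached genes of several other roles. Clec10a, a lectin of macrophages and dendritic cells, rose by 2.03 ± 0.22, with 6 of 16 macrophage-poor arrays at the floor. Folr2, a folate receptor of tissue macrophages, rose by 1.03 ± 0.12, and Irf8, a transcription factor of the monocyte and dendritic lineages, by 1.26 ± 0.17. Ptprc, the pan-leukocyte phosphatase CD45, read 6.82, 7.62 and 9.72 in macrophage-rich tumors, against 5.31, 6.45 and 6.97 in macrophage-poor tumors, a rise of 1.62 ± 0.26 (limma adjusted p = 1.77e-05). Itgam, the integrin chain CD11b, was too dim on average to be tested. It read 6.15, 7.07 and 8.0 in macrophage-rich tumors, against 5.31, 5.33 and 6.28 in macrophage-poor tumors. Of the other list genes too dim to be tested, Cd86, Lilrb4, Stab1, Evi2a and Alox5 also had higher medians in macrophage-rich tumors. Clec4f (5.57 against 5.84) and Cd80 (5.56 against 5.68) had lower medians, and the median of Cd52 was at the floor in both classes.

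Not every gene of the list followed. Cd14, a co-receptor for bacterial lipopolysaccharide that is also made outside the myeloid lineage, read 7.59, 9.04 and 10.04 in macrophage-rich tumors, against 9.91, 10.47 and 11.07 in macrophage-poor tumors. It fell by 1.25 ± 0.18 (limma adjusted p = 5.47e-06), and its level was lower in macrophage-rich tumors in all 4 lines that held both classes. Ucp2, a mitochondrial carrier found in many tissues, fell by 1.02 ± 0.17. Aif1, the macrophage protein Iba1, differed by -0.17 ± 0.16 (limma adjusted p = 0.505). Lyn, a kinase of myeloid and B cells, and Cebpb, a transcription factor of myeloid and epithelial cells, also missed the threshold, at -0.18 and -0.32.

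Of 12 complement genes tested, 8 rose and 0 fell, with a median difference of 0.96. C1qa, a chain of the C1q recognition molecule that macrophages secrete, read 9.74, 10.43 and 11.05 in macrophage-rich tumors, against 7.87, 9.0 and 9.44 in macrophage-poor tumors. The classes did not overlap (difference 1.49 ± 0.17, limma adjusted p = 4.6e-08). C1qc, another chain of the same molecule, rose by 1.35 ± 0.17, and C1qb by 0.78 ± 0.12. C1r and C1s, the proteases that C1q activates, rose by 1.51 ± 0.22 and 1.58 ± 0.21. C3, the central component, differed by -0.16 and did not pass the test. Of the 8, C5ar1 and Serping1 were not called within lines.

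All 3 receptors for immunoglobulin that were tested rose. Fcgr2b, the inhibitory IgG receptor, read 6.43, 7.48 and 8.84 in macrophage-rich tumors, against 5.31, 5.40 and 6.92 in macrophage-poor tumors, where 8 of 16 arrays were at the floor. Its difference was 2.11 ± 0.22 (limma adjusted p = 1.75e-08). Fcgrt, the neonatal receptor that recycles IgG, rose by 0.95 ± 0.17, and Fcgr3a, an activating IgG receptor, by 0.68 ± 0.21, which was not called within lines. Of 4 subunits of the phagocyte oxidase, which makes superoxide, 3 rose. Cybb, its catalytic subunit, read 7.71, 8.49 and 9.16 in macrophage-rich tumors, against 6.89, 7.16 and 7.67 in macrophage-poor tumors, with no overlap (1.18 ± 0.13). Rac2, the GTPase that switches the oxidase on, rose by 1.95 ± 0.37, and its differences within the 4 lines ran from -0.03 (line 34) to 4.88 (line 13).

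Of 34 lysosomal genes tested, 18 rose and 3 fell, with a median of 0.33, and within lines only 5 rose and 2 fell. In the arrays with Epcam at 10 or above, 5 rose. Ctsz, a carboxypeptidase of the lysosome, read 8.87, 9.41 and 9.98 in macrophage-rich tumors, against 7.21, 8.58 and 8.83 in macrophage-poor tumors, with no overlap. Ctss, the cathepsin that trims the invariant chain of MHC class II, rose by 1.18 ± 0.21, and Lgmn, an asparagine-specific protease, by 0.64 ± 0.11. Lamp1 and Lamp2, the abundant membrane proteins of all lysosomes, differed by 0.13 and -0.01 and did not pass the test.

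MHC class II genes, which present extracellular peptides to helper T cells, moved in 1 direction. All 8 tested rose, with a median difference of 1.17, and all 8 were called in each of the fit without line 42, the fit within lines and the fit to arrays with Epcam at 10 or above. RT1-Da, the alpha chain of the rat D molecule, read 10.50, 11.77 and 12.32 in macrophage-rich tumors, against 9.33, 10.40 and 11.15 in macrophage-poor tumors. The classes overlapped in part, and the difference was 1.23 ± 0.20 (limma adjusted p = 2.57e-05). RT1-Bb, the beta chain of the B molecule, differed by 1.48 ± 0.26, RT1-Ba by 1.40 ± 0.27 and RT1-Db1 by 1.33 ± 0.22. Cd74, the invariant chain, rose by 1.11 ± 0.20, and RT1-DMa and RT1-DMb, which load peptides, by 1.01 ± 0.13 and 0.82 ± 0.13. Ciita, the transactivator of these genes, rose by 0.57 ± 0.13 (limma adjusted p = 0.00148).

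The promoters of class II genes are known for a shared module that ends in a CCAAT-type Y box, read by NF-Y beside RFX and CIITA. The sequences of the 4 chain genes are shown because these genes rose together and share that element. The search used CTGATTGG, the box as it reads towards the gene, and its reverse complement CCAATCAG, in RefSeq windows of 250 bases before to 50 after the gene start (build GRCr8). Of 6 class II genes with a window, 4 held it, against 975 of 27457 rat promoters (3.55%). Windows of 100 bases follow, 5′ to 3′ on the strand of the gene and ending 31 bases before its start, with the matched letters in capitals. They lie at chr20:4515285-4515384 on the plus strand for RT1-Da, chr20:4560193-4560292 on the minus strand for RT1-Db1, chr20:4576927-4577026 on the plus strand for RT1-Ba and chr20:4604149-4604248 on the minus strand for RT1-Bb.
RT1-Da: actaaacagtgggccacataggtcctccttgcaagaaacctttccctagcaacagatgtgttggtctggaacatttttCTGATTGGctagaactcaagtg
RT1-Db1: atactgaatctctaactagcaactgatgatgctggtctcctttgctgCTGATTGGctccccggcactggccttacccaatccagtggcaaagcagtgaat
RT1-Ba: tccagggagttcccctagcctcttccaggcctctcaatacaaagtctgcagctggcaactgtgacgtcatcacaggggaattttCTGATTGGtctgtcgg
RT1-Bb: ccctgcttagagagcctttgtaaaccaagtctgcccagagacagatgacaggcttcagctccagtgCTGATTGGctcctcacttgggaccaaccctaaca

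The matched letters begin 52 bases before the start of RT1-Da, 83 before RT1-Db1, 46 before RT1-Ba and 64 before RT1-Bb, all in the same orientation. The windows of Cd74 and RT1-DMa did not hold these 8 letters. In the same windows, GAGGAAGT, the letters bound by the myeloid factor PU.1, or their reverse complement ACTTCCTC occurred in 2 of 18 macrophage list genes with a window (Cd53 and Cd37), in 0 of the 3 score genes and in 670 of 27457 promoters (2.44%). Both motifs were chosen after the values of these genes were known, and a match is a description of the letters only.

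MHC class I presents peptides made inside the cell. Of 16 MHC class I and peptide-loading genes 0 rose and 1 was lower, the peptide-loading chaperone Tapbp (-0.47 ± 0.11), which was not called within lines, and the list median was -0.02. Of 17 interferon response genes 0 rose and 3 fell, against 13% higher and 13.3% lower over all genes tested. Oas1a, an antiviral enzyme, read 6.39, 7.26 and 8.34 in macrophage-rich tumors, against 7.18, 8.58 and 9.61 in macrophage-poor tumors (difference -0.92 ± 0.25, limma adjusted p = 0.00581). None of the 3 was called within lines with limma, where 2567 of all 8496 genes had an unadjusted p below 0.05.

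**Figure D2:**
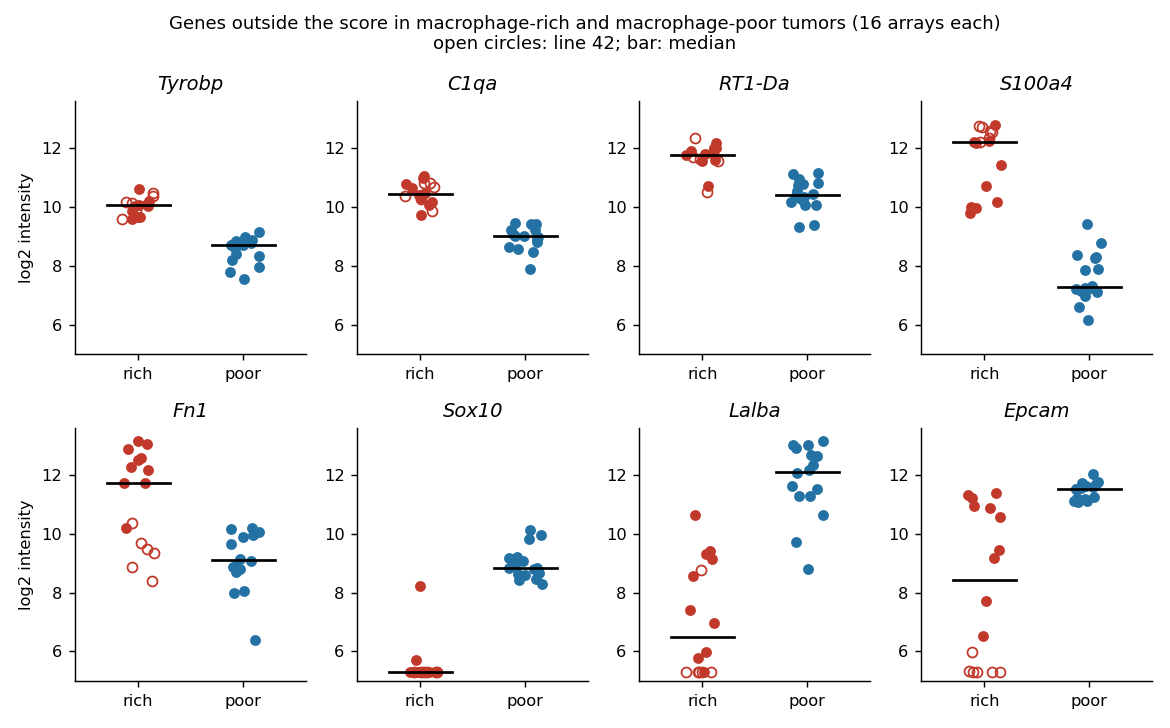
Log2 intensity of 8 genes outside the score in 16 macrophage-rich and 16 macrophage-poor arrays (points), with the class median (bar) and line 42 as open circles. Tyrobp, C1qa, S100a4 and Sox10 do not overlap between the classes, whereas RT1-Da, Fn1, Lalba and Epcam overlap in part.

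Ligands that draw or feed macrophages were mixed. Of 24 growth factors and attractants tested, 8 rose and 4 fell, within lines 5 rose and 3 fell, and in the arrays with Epcam at 10 or above 7 rose and 1 fell. Over all 8496 genes 13% rose and 13.3% fell, and within lines 7.12% and 9.11%. In the arrays with Epcam at 10 or above the shares were 6.37% and 5.36%. The ligands that fell were near these shares. Ccl2, the main attractant of monocytes, read 6.89, 8.30 and 10.00 in macrophage-rich tumors, against 5.31, 6.54 and 8.69 in macrophage-poor tumors (difference 2.04 ± 0.36, limma adjusted p = 7.38e-05). Ccl6, a rodent chemokine of myeloid cells, rose by 2.12 ± 0.34 and Tgfb1 by 1.58 ± 0.25. Cx3cl1, the membrane-bound chemokine fractalkine, fell by 1.54 ± 0.27, with 6 of 16 macrophage-rich arrays at the floor. Cxcl14, an epithelial chemokine, fell by 1.83. Csf1, the ligand of Csf1r, read 7.92, 8.52 and 8.88 in macrophage-rich tumors, against 7.51, 8.25 and 8.70 in macrophage-poor tumors. It did not pass the test (difference 0.26 ± 0.11, limma adjusted p = 0.0825). None of 5 attractant receptors tested was called by limma. Those with the smallest p were Csf2rb, a shared cytokine receptor chain, at 0.18 ± 0.12 (limma adjusted p = 0.308) and Flt1, a receptor for vascular growth factors, at 0.21 ± 0.15 (limma adjusted p = 0.326). Ackr3, Ccr1 and Ccr2 of the same list were too dim on average to be tested. Their medians were 6.95, 5.57 and 5.31 in macrophage-rich tumors, against 5.45, 5.31 and 5.31 in macrophage-poor tumors.

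Genes tied to opposite states of macrophage activation both included some that rose. Of 16 inflammatory genes, 5 rose and 1 fell, against 3 and 1 within lines. Over all 8496 genes, 13% rose and 13.3% fell, and within lines 7.12% rose and 9.11% fell. Vcam1, an adhesion molecule for leukocytes, rose by 1.73 ± 0.31, with 11 of 16 macrophage-poor arrays at the floor, and Il18, a cytokine also made by epithelium, fell by 1.05 ± 0.19. Of 12 genes of alternative activation, 8 rose and 0 fell, against 3 within lines, 7 without line 42 and 6 in the arrays with Epcam at 10 or above. Igf1, a growth factor of macrophages and fibroblasts, read 8.03, 8.84 and 9.91 in macrophage-rich tumors, against 5.77, 7.0 and 8.22 in macrophage-poor tumors (2.05 ± 0.20, limma adjusted p = 6.8e-09). Spp1, the phosphoprotein osteopontin, rose by 1.79 ± 0.49 but was not called within lines. Arg1, the arginase used as a mark of this state, differed by 0.41 and did not pass the test. Of 9 lipid and iron genes 1 rose and 3 fell. Plin2, the coat of lipid droplets, fell by 1.10 ± 0.17, and Hmox1, the enzyme that degrades heme, rose by 0.82, which was not called without line 42.

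Most fibroblast matrix genes rose as well. Of 34 tested 30 rose and 0 fell, with a median difference of 1.53. Without line 42 the count was 30 and the median 1.78, in the arrays with Epcam at 10 or above 21 rose, and within lines 15 rose. The mean over the list ran from 7.87 to 11.21 in macrophage-rich tumors, against 7.14 to 9.44 in macrophage-poor tumors, so the classes overlapped. How far fibroblast content enters the other differences was not tested.

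Pcolce, which speeds the trimming of procollagen, read 9.20, 10.73 and 12.21 in macrophage-rich tumors, against 5.38, 8.20 and 9.32 in macrophage-poor tumors (difference 2.67 ± 0.31, limma adjusted p = 1.36e-07). Fn1, fibronectin, read 8.39, 11.73 and 13.14 in macrophage-rich tumors, against 6.40, 9.10 and 10.20 in macrophage-poor tumors, a rise of 2.45 ± 0.38. Line 42 held all 5 macrophage-rich values of Fn1 under 10, and without that line the difference was 2.88. Sfrp4, a secreted Wnt antagonist of fibroblasts, rose by 3.16 ± 0.45, with 9 of 16 macrophage-poor arrays at the floor. Dpt, a small matrix protein of skin and stroma, rose by 2.25 ± 0.48. Col1a1, the main chain of type I collagen, rose by 1.73 ± 0.52 but was not called within lines, where line 17 gave a difference of -0.31.

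Car3 and S100a4 had the largest rises among the genes called. Car3, the carbonic anhydrase of fat and slow muscle, read 5.31, 9.85 and 11.65 in macrophage-rich tumors, against 5.31, 5.39 and 8.88 in macrophage-poor tumors (3.60 ± 0.55, 12.1-fold, limma adjusted p = 8.92e-06). It sits beside Cfd, the adipocyte and macrophage protease adipsin, which rose by 2.80 ± 0.54. Of 6 adipocyte genes tested, Cfd and Pck1 rose and the list median was -0.04. Fabp4, the fatty acid carrier of adipocytes and macrophages, was too dim on average to be tested. It read 5.31, 6.86 and 9.63 in macrophage-rich tumors, against 5.31, 5.31 and 6.53 in macrophage-poor tumors. Among the other adipocyte genes too dim to be tested, Lipe, Aqp7 and Ucp1 also had higher medians in macrophage-rich tumors. Plin4 and Cidea had lower medians, and the medians of Lep and Plin1 were at the floor in both classes. How far fat content enters these differences was not tested. S100a4, a calcium-binding protein of fibroblasts and motile cells, read 9.79, 12.21 and 12.77 in macrophage-rich tumors, against 6.15, 7.28 and 9.42 in macrophage-poor tumors, with no overlap (3.38 ± 0.34, limma adjusted p = 8.71e-09).

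Emp3, a small membrane protein of mesenchymal cells and leukocytes, read 9.02, 11.36 and 12.13 in macrophage-rich tumors, against 6.49, 7.37 and 8.24 in macrophage-poor tumors, with no overlap (2.88 ± 0.29). Tgfbi, a matrix protein that macrophages and fibroblasts secrete, rose by 2.44 ± 0.24 and did not overlap either. Lgals1, galectin 1, rose by 2.81 ± 0.42, Clmp, an adhesion molecule, by 2.41 ± 0.27 and Fads3, a fatty acid desaturase family member, by 2.28 ± 0.22. The 12 genes with the largest rises (Car3, S100a4, Sfrp4, Emp3, Lgals1, Cfd, Pcolce, Fn1, Tgfbi, Clmp, Fads3 and Dpt) were all called without line 42, within lines, and in the arrays with Epcam at 10 or above.

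Sox10 gave the smallest p-value among the 8496 genes, and it fell. Sox10 is a transcription factor of the neural crest that is also made by mammary epithelial progenitors and basal-like breast tumors. It read 5.31, 5.31 and 8.22 in macrophage-rich tumors, against 8.30, 8.83 and 10.11 in macrophage-poor tumors. The classes did not overlap, 14 of 16 macrophage-rich and 0 of 16 macrophage-poor arrays were at the floor, and the fitted difference was -3.16 ± 0.19 (limma adjusted p = 3.61e-14). The 2 macrophage-rich arrays above the floor came from lines 13 (8.22) and 36 (5.71).

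Every array with Epcam under 10 had Sox10 at the floor, and so did some arrays with Epcam at 10 or above. Line 17 had Epcam at 10 or above on all 6 arrays, yet Sox10 was at the floor on its 5 transplants and at 8.58 in its macrophage-poor primary tumor. Line 42 had Sox10 at the floor on 6 arrays, and lines 32 (with the left-out array) and 34 on 3 each, all with Epcam under 10. Line 36 had Sox10 at the floor on 2 arrays, 1 of them with Epcam at 10 or above. Line 25R had 1 such array, with Epcam at 10 or above. Of the 32 arrays between the classes, 5 had Sox10 at the floor, 3 of them from line 17. In the arrays with Epcam at 10 or above, the difference was -2.97 (limma adjusted p = 1.69e-07).

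**Figure D3:**
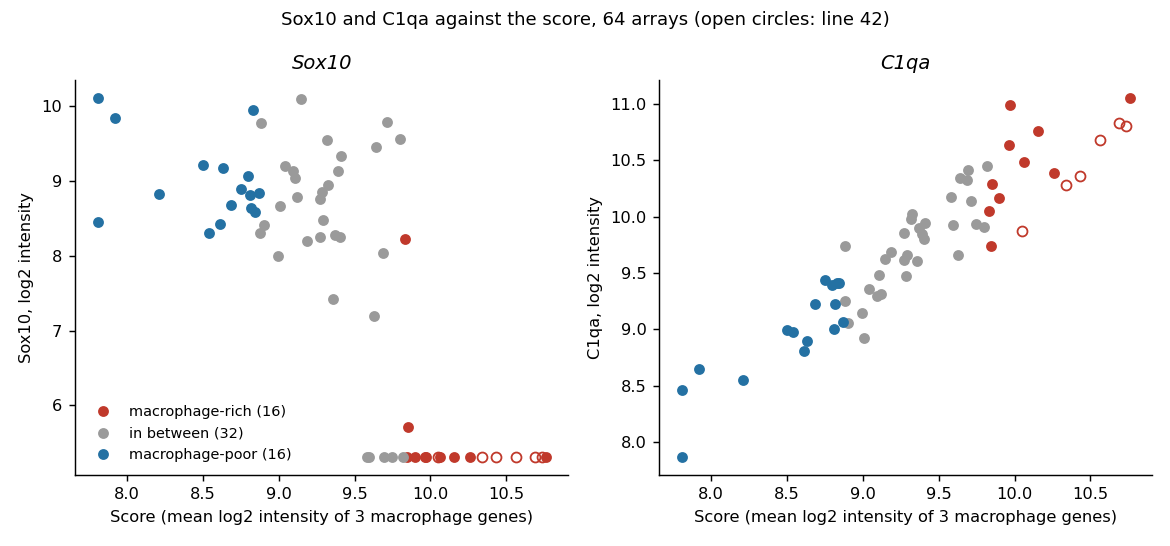
Log2 intensity of Sox10 (left) and C1qa (right) against the macrophage score in 64 arrays, coloured by class, with line 42 as open circles. Sox10 is at the floor (5.31) in 14 of 16 macrophage-rich, 5 of 32 in-between and 0 of 16 macrophage-poor arrays, while C1qa runs from 9.74 to 11.05 in the rich class and from 7.87 to 9.44 in the poor class.

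With Sox10, 12 genes (0.141%) were lower in every macrophage-rich array than in any macrophage-poor array, and 27 (0.318%) were higher in every one. Together these 39 genes are 0.459% of those tested. The lower ones include Lmo4, a transcriptional cofactor of mammary epithelium, which read 9.18, 9.70 and 10.37 in macrophage-rich tumors, against 10.63, 10.97 and 11.67 in macrophage-poor tumors (-1.23 ± 0.11). Wnk2, a kinase that restrains growth factor signalling, fell by 1.46 ± 0.12. Among the higher ones, C1qa, C1qc, Tyrobp, Fcer1g, Laptm5, Cd53, Cybb and Ctsz belong to the myeloid lists.

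Epithelial genes fell as a class. Of 16 luminal genes tested 0 rose and 12 fell, with a median difference of -1.61, and of 15 junction genes 0 rose and 12 fell, with a median of -1.46. In the arrays with Epcam at 10 or above, 8 of each list fell and the medians were -0.58 and -0.43. Muc1, the apical mucin of luminal cells, read 5.43, 5.78 and 7.43 in macrophage-rich tumors, against 6.43, 8.30 and 8.92 in macrophage-poor tumors (-2.05 ± 0.21, limma adjusted p = 1.31e-08). Prlr, the prolactin receptor, read 5.31, 5.82 and 9.92 in macrophage-rich tumors, against 9.02, 10.51 and 11.60 in macrophage-poor tumors (-3.13 ± 0.43).

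Cldn3, a claudin of tight junctions, fell by 2.95 ± 0.39, with 9 of 16 macrophage-rich arrays at the floor. Krt8 and Krt18, the simple-epithelium keratins, both fell by 2.55, but unevenly: Krt8 differed by -6.54 in line 34 and by -0.54, -0.50 and -0.23 in lines 13, 17 and 25R. Of 18 basal and myoepithelial genes, 4 rose and 6 fell, against 1 and 2 in the arrays with Epcam at 10 or above. Krt5, the basal keratin, fell by 2.18 ± 0.55, and in the arrays with Epcam at 10 or above it differed by -0.12 (limma adjusted p = 0.79). Mylk, a kinase of contractile cells, fell by 2.31 ± 0.36.

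Lalba and Olah, both milk genes, had the largest falls among the genes called. Of 13 tested, 8 fell and 1 rose (Spp1), and without line 42 the median difference was -1.24. Lalba, the alpha-lactalbumin that makes lactose synthesis possible, read 5.31, 6.48 and 10.63 in macrophage-rich tumors, against 8.80, 12.10 and 13.13 in macrophage-poor tumors (-4.37 ± 0.55, limma adjusted p = 3.88e-07). Olah, the thioesterase that ends fatty acid synthesis at the medium chains found in milk, read 5.31, 5.45 and 7.6 in macrophage-rich tumors, against 6.30, 10.42 and 11.89 in macrophage-poor tumors (-3.78 ± 0.48). Csn3, kappa-casein, read 5.77, 9.39 and 12.45 in macrophage-rich tumors, against 11.14, 13.15 and 13.63 in macrophage-poor tumors (-3.30 ± 0.52). The classes overlapped in part in all 3 genes, and in Lalba 6 of 16 macrophage-rich arrays were at the floor.

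The other leading falls had varied roles. Gp2, a membrane glycoprotein of secretory granules, fell by 3.76 ± 0.53, and Csap1, a secretory protein, fell by 3.42 ± 0.68. Igfbp2, a binding protein of insulin-like growth factors, fell by 3.11 ± 0.49, and Plet1, a surface protein of progenitor epithelium, fell by 3.07 ± 0.46. Col2a1, the collagen of cartilage, read 5.81, 6.75 and 10.21 in macrophage-rich tumors, against 8.0, 10.71 and 11.47 in macrophage-poor tumors (-3.22 ± 0.37, limma adjusted p = 9.53e-08). The probe set of Mup5, a major urinary protein, is of a type that may bind related family members, so its difference of -3.16 cannot be assigned to 1 gene.

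**Figure D4:**
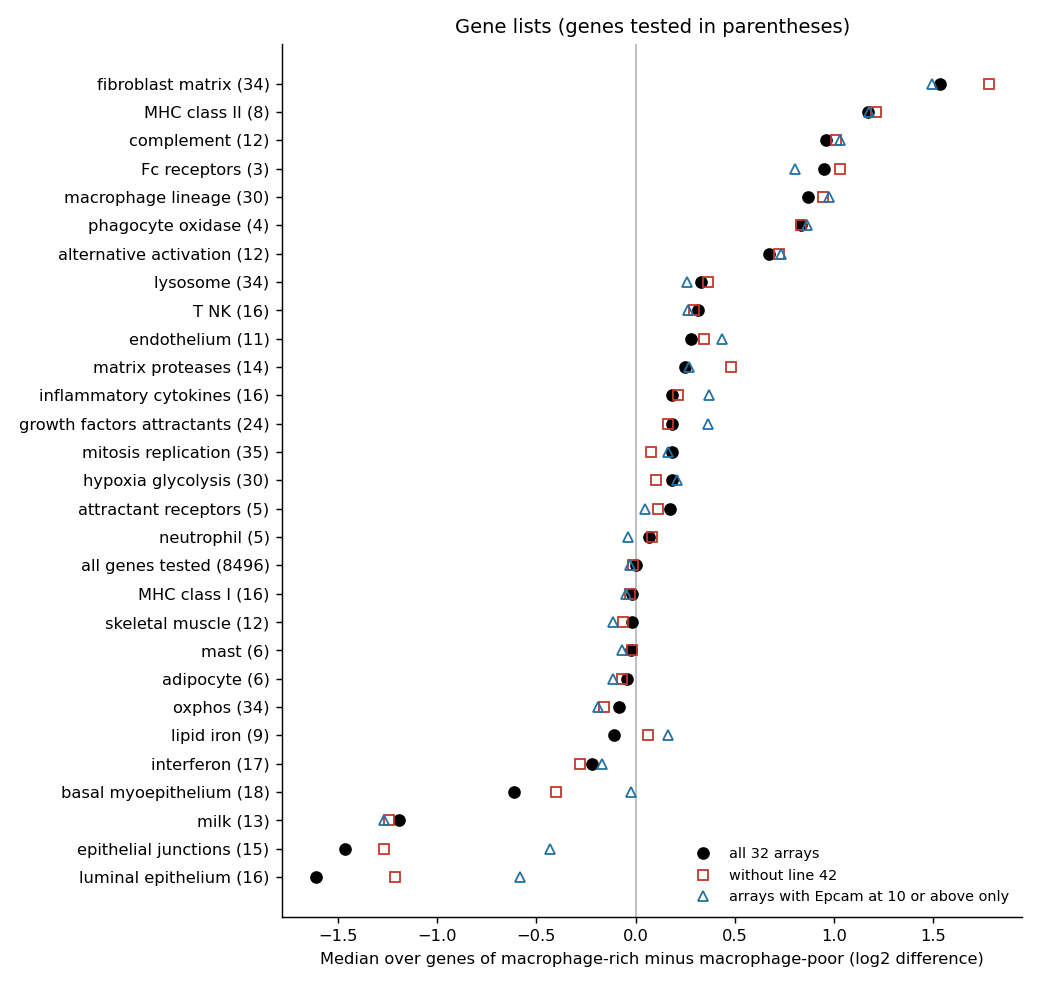
Median over the tested genes of each list of the macrophage-rich minus macrophage-poor log2 difference, for all 32 arrays (filled circles), without line 42 (squares) and in arrays with Epcam at 10 or above (triangles). Fibroblast matrix (1.53) and MHC class II (1.17) stand highest and luminal epithelium (-1.61) lowest, and the luminal and junction medians lie nearer to 0 (-0.58 and -0.43) in arrays with Epcam at 10 or above.

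Markers of other leukocytes were counted in the same way. Over all 8496 genes 13% rose and 13.3% fell, without line 42 11.8% and 11.9%, and within lines 7.12% and 9.11%. Of 16 T and NK cell genes 6 rose and 0 fell, and 3 rose without line 42 and 3 within lines. The list mean ran from 7.09 to 7.97 in macrophage-rich tumors, against 6.99 to 7.42 in macrophage-poor tumors. Il2rg, the common gamma chain of cytokine receptors in lymphoid and myeloid cells, rose by 1.96 ± 0.29. Cd3e, which defines T cells, rose by 0.44 ± 0.16 (limma adjusted p = 0.0353) and was not called without line 42, and Cd2, also of T cells, differed by 0.04. The part of these cells in the other differences was not tested. Of 5 neutrophil genes 2 rose and 1 fell: S100a9, a calcium-binding protein of neutrophils and monocytes, rose by 1.61 but was not called within lines, and Lcn2, a siderophore-binding protein also secreted by epithelium, fell by 2.52 ± 0.59. Of 6 mast cell genes only Kit was called, which fell by 1.16, and Kit is also a luminal progenitor receptor. Of 2 B and plasma cell genes 1 rose, Prdm1 by 0.43.

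Vessel genes rose in part: 4 of 11 endothelial genes, with Ramp2, a receptor partner for adrenomedullin, up by 0.88 ± 0.23 and Esam, an adhesion molecule, by 0.53 ± 0.13. Within lines 2 of the 11 were called, and Ramp2 was not. The counts here stand beside 13% of all 8496 genes higher and 13.3% lower, and 7.12% and 9.11% within lines. Of 14 matrix proteases 5 rose and 1 fell, against 3 and 1 within lines, with Htra1, a secreted serine protease, up by 2.14 ± 0.30. Of 35 mitosis and replication genes 2 rose and 0 fell, with a median of 0.18, and within lines 0 rose and 1 fell. Of 30 hypoxia and glycolysis genes 6 rose and 2 fell, a share close to the 26.3% of all genes tested, and Plod2, a collagen lysyl hydroxylase, had the smallest p (1.6 ± 0.19). Of 34 oxidative phosphorylation genes 0 rose and 3 fell, and within lines 7 fell. Of 12 skeletal muscle genes 0 rose and 1 fell: Atp2a1, the calcium pump of fast muscle, fell by 0.58 and was not called within lines. Another 14 muscle genes were too dim to be tested. Among them Tnni2, a fast troponin, read 5.31, 5.31 and 11.43 in macrophage-rich tumors, against 5.31, 5.31 and 5.62 in macrophage-poor tumors, and Eno3, the muscle enolase, read 5.31, 5.79 and 10.14 in macrophage-rich tumors, against 5.31, 5.31 and 5.57 in macrophage-poor tumors. Acta1, the skeletal muscle actin, lay between 7.96 and 12.23 on the 6 arrays of line 42 and at 5.44 or below on the other macrophage-rich arrays, while macrophage-poor arrays reached 11.11. The part of muscle in the class differences was not tested.

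The 32 arrays that belonged to neither class gave a second reading that did not enter the class comparison. Their scores spanned 8.88 to 9.82, and each gene was fitted against the score within 10 lines. In that fit 45 genes (0.53%) passed an adjusted p of 0.05 in limma, 33 (0.388%) with a positive and 12 (0.141%) with a negative slope. Of the 45, 35 had been called in the class comparison, all in the same direction, 32 of them upward. At an unadjusted p below 0.05, 859 of 8496 genes passed.

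The 45 included 5 genes of the macrophage and myeloid list (Laptm5, Irf8, Cd37, Cd53 and Folr2) and 5 of the MHC class II list. Laptm5 had a slope of 1.00 ± 0.15 per unit of score (SE) and Irf8 0.98 ± 0.16. Of other lists, the lysosomal gene Ctss had 1.53 ± 0.21 (limma adjusted p = 0.00103). The complement genes C1qc and C1qa had 1.05 ± 0.15 and 1.07 ± 0.18. Maf, a transcription factor of macrophages, had 1.85 ± 0.30. Of the 8 class II genes 5 were called, with RT1-Ba at 2.14 ± 0.40 and RT1-Bb at 2.09 ± 0.35, and all 8 passed at an unadjusted p below 0.05. Of 30 macrophage and myeloid genes 5 were called and 17 passed unadjusted. Tyrobp, at 0.72 ± 0.17, missed the adjusted threshold (limma adjusted p = 0.0581).

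Matrix genes had positive slopes as well, with 2 of 34 called (Sfrp4 and Mfap5) and 23 passing unadjusted. Sfrp4 rose by 3.39 ± 0.65 per unit of score (limma adjusted p = 0.0121). Skeletal muscle genes were mostly positive here: 10 of 12 had a positive slope, 7 passed unadjusted and 0 were called, with a median slope of 1.12. Their part in the slopes of other genes was not tested.

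The 12 leading risers and 12 leading fallers of the class comparison were read in the same fit. All 12 risers had a positive slope with an unadjusted p below 0.05, and 1, Sfrp4, was called. Of the 12 fallers 10 had a negative slope, 5 passed unadjusted and 0 were called. Sox10 had a slope of -0.23 ± 0.60 (limma adjusted p = 0.931) and Lalba -0.78 ± 1.17, while Olah (1.18 ± 1.21) and Csap1 (0.58 ± 1.64) had slopes above 0. Over the 13 milk genes the median slope was 0.13 and 0 passed unadjusted. A missed threshold over this narrow range of scores does not show that these genes are unrelated to it, and the difference between the readings was not tested.

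**Figure D5:**
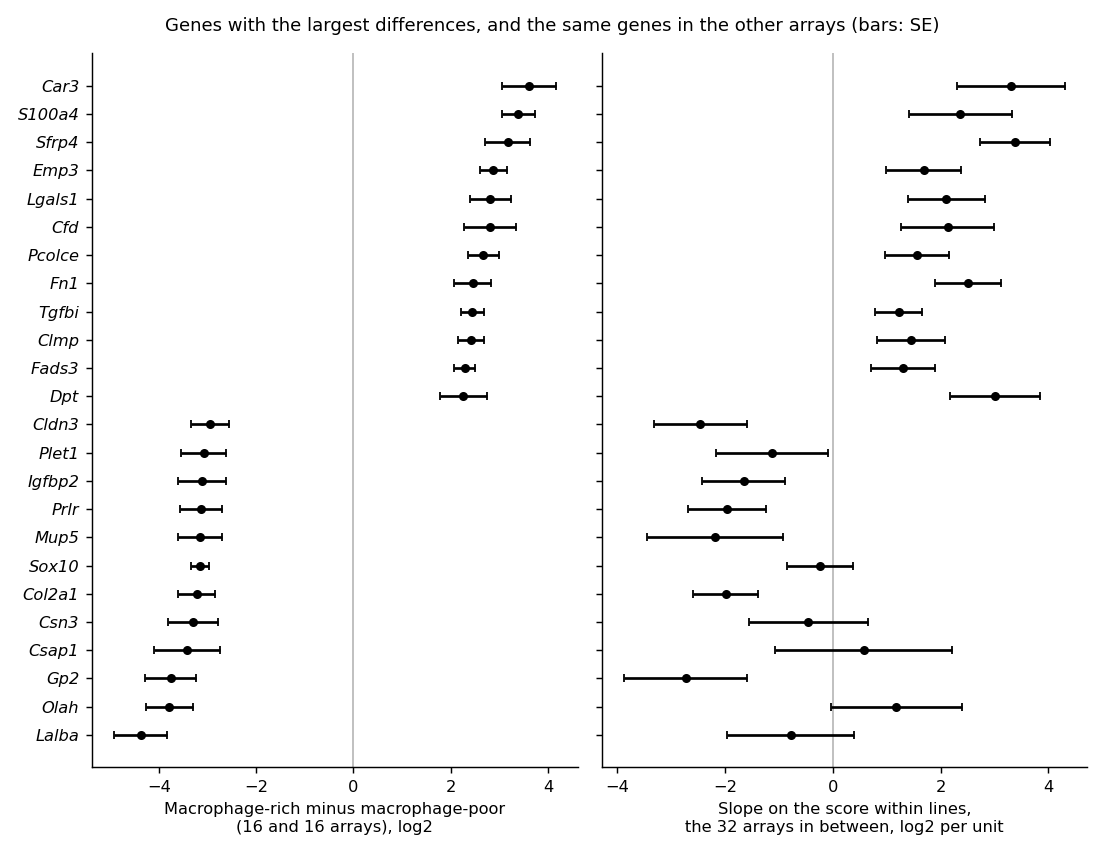
Left, macrophage-rich minus macrophage-poor log2 difference (16 and 16 arrays) of the 12 leading risers and 12 leading fallers, and right, their slope per unit of macrophage score within lines in the 32 other arrays (points, with SE). All 12 risers have a positive slope, and Olah (1.18) and Csap1 (0.58) are the fallers with a slope above 0.

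The 4 lines that held both classes gave within-line differences, each of which rests on a single array in 1 of the classes. C1qa was higher in macrophage-rich tumors by 1.21 in line 13, 1.16 in line 17, 2.14 in line 25R and 1.17 in line 34. Tyrobp was higher by 1.5, 1.17, 1.79 and 0.94 in the same order of lines, and Emp3 by 2.08, 1.83, 1.89 and 3.48. RT1-Da differed by 1.48, 0.31, 1.47 and 1.26. All 4 lines shared the direction in these 4 genes. For C1qa, Tyrobp and Emp3 this was fixed in advance, since the classes did not overlap. Lgals1 was uneven, at 0.35 in line 17 and 2.02, 3.00 and 2.78 in lines 13, 25R and 34. Of the 24 leading genes, 23 went the same way in all 4 lines, which the rule that chose them favours, and Plet1 did so in 3.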

How the data were processed

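RNA from frozen rat mammary tumors (6 µg of total RNA per array, per the labels) was measured on 65 Affymetrix arrays. The authors deposited linear intensities per probe set, between 1 and 12011. Their summarisation and normalization are not stated in the labels or files used here. Here arrays were brought to a common median (162) across the 15866 non-control probe sets, raised to a floor at the pooled 10th percentile (39.8, log2 5.31) and converted to log2. Values at the floor have no order. Of the 15866, 12783 had 1 gene symbol, 312 several and 2771 none, and names were updated through RefSeq (GRCr8, 12748 matched). The probe set with the highest mean stood for each of 10411 genes, and genes with a mean log2 below 6.35 were not tested. Transplant 5 of line 32 was left out, since its raw median was 96.1 against 143 to 176 elsewhere; its score was 10.40.

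Classes were compared with limma 3.58.1 in R 4.3.3 (lmFit, eBayes, two-sided, Benjamini-Hochberg over 8496 genes at 0.05), with line as a random block (duplicateCorrelation, statmod 1.5.0, correlation 0.486). The pairing by line comes from the design text, and arrays of 1 line correlated at a mean of 0.38 against -0.04 between lines. Differences are macrophage-rich minus macrophage-poor log2 intensities ± SE, and folds are 2 to that power. The scripts were tested on simulated data. The p-values weigh each difference against the spread between these arrays, with 1 within-line correlation for all genes. The number of arrays and of lines (7 with macrophage-rich, 8 with macrophage-poor arrays, 4 with both) limits the precision.

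Named genes were the 12 largest rises and 12 largest falls among genes called, of the same sign with line as a fixed block and of the same direction in at least 3 of the 4 lines with both classes, plus at most 4 members per gene list with the smallest p; other genes named were chosen after their values were seen. The classes, members and 29 lists were chosen with earlier results of these data known. Alternatives covered scaling, floor, filter, class size, score genes, line, generation, Epcam, RNA quality, array weights and each line left out.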

Additional observations from a re-analysis of the deposited data

Results flagged for a closer look

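Within line 17 the score of the primary tumor, 8.85, stood apart below its 5 transplants, the nearest of which was at 9.58 (gap 0.652 of the range, 6 arrays, 12 groups examined, of which chance flags about 1 in 20). This array is the only macrophage-poor tumor of line 17, so every within-line value of line 17 rests on it.

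For 5 of the leading genes the macrophage-rich minus macrophage-poor difference was called as unequal among lines 13, 17, 25R and 34, by a limma interaction test over 13 arrays that called 155 of 8496 genes. In each of these lines 1 of the classes is a single array (the macrophage-rich one in lines 13, 25R and 34, the macrophage-poor one in line 17), so a difference between lines and a difference of that 1 tumor cannot be told apart. Igfbp2 differed by -0.69, -1.40, -2.30 and -6.14 in those lines (limma adjusted p = 0.00104). Gp2 differed by -0.98, -1.38, -4.50 and -6.40 (limma adjusted p = 0.0439), and Csap1 by -0.22, -0.68, -3.92 and -6.15 (limma adjusted p = 0.0371). Plet1 differed by 0.08, -3.79, -2.48 and -5.68 (limma adjusted p = 0.0424), and Csn3 by -2.78, -2.13, -3.01 and -5.34 (limma adjusted p = 0.0444). In all 5 genes line 34 had the largest fall, and its macrophage-rich array (transplant 3) had Epcam at 6.52, against 12.01 and 11.74 in its macrophage-poor arrays.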

How the results depend on the processing

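The count of 2232 genes kept within 1.5 times of itself under scaling, floor, filter, class size, score gene, transplant-only, RNA quality and array weight alternatives (1551 to 3299, the upper end with no line term), and with each line left out (1565 without line 34 to 2273 without line 25L). It came to 1379 with line as a fixed replicate block, 1049 with all 64 arrays in 3 classes with generation and that block, 1355 with generation as a covariate and 905 with Epcam as a covariate. In arrays with Epcam at 10 or above it was 996, and 499 with the block added; both were chosen after the data were seen and hold fewer arrays. For the 32 other arrays, 45 genes became 262 with no line term, 156 with a random in place of the replicate block, 23 with no filter and 24 with generation. Of 117 genes followed, 2 called ones changed sign: Krt5 with Epcam as a covariate (0.015), and Atp2a1 with 20 arrays a class (0.11), with the score without Lyz2 (0.079) or Csf1r (0.16), and in 3 classes (0.0052); Flt1, not called, changed sign with generation (-0.072) or Epcam (-0.071) as a covariate. A call was lost in at least 1 alternative for 55 of the 117. The cause of these changes was not tested. Of 16 arrays a class, 13 to 15 stayed rich when a score gene, the scaling or the left-out array was changed. Intensities near the floor limit dim genes.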
